A study of Mus musculus with 2 samples.

Results

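The MHC class I presentation genes examined here are 10 genes chosen by name. They encode the heavy chains H2-K1, H2-D1 and H2-T23, the light chain B2m, the peptide transporter subunits Tap1 and Tap2, the peptide editors Tapbp and Tapbpl, the trimming peptidase Erap1 and the transcriptional activator Nlrc5. All 10 were found by gene symbol among the 24013 gene symbols of the deposited table, and where a symbol had several transcript rows the one with the highest mean of both libraries was used. The RNA came from splenic CD8 T cells of C57BL/6 mice, isolated as naive cells with a commercial kit and kept for 24 hours on plate-bound antibodies to CD3 and CD28. The DGKζ-/- library came from mice aged 6 weeks that lack diacylglycerol kinase ζ (DGKζ), a kinase that consumes the second messenger diacylglycerol downstream of the T cell receptor. The wild-type library came from mice aged 7 weeks. The labels give 1 library per genotype and do not say how many animals each holds, so no difference has a replicate check and no test was possible. No unstimulated library was analysed here, so the effect of stimulation itself was not measured.

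MHC class I molecules carry peptides from inside the cell to its surface, where CD8 T cells and natural killer cells inspect them. A heavy chain pairs with β2-microglobulin in the endoplasmic reticulum and is held in a peptide-loading complex. There, peptides made by the proteasome arrive through the TAP transporter and are trimmed and exchanged until a stable molecule can leave. In T cells, as in most nucleated cells, these genes are expressed constitutively and are raised by interferon γ, and NLRC5 is their main constitutive activator in lymphocytes.

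The heavy chain genes are close relatives. Upstream regions of H2-K1, H2-D1, B2m and Tapbp are shown, and these genes were picked after their values were seen. H2-K1 and H2-D1 differed between the libraries by the same factor, while B2m and Tapbp did not follow them. Whether upstream sequence bears on these differences was not tested. RefSeq upstream sequences (build GRCm38.p6) were matched by symbol for 7 of the 10 genes. Each run below is the 250 bases before the annotated start, 5′ to 3′, and capitals mark matches to GGGNNTTCC, a core of κB sites, or to GAAANNGAA, a core of the interferon-stimulated response element, on either strand. The windows lie at chr17:34000348-34000597 (minus strand) for H2-K1, chr17:35262844-35263093 (plus) for H2-D1, chr2:122147437-122147686 (plus) for B2m and chr17:33919228-33919477 (plus) for Tapbp.
H2-K1: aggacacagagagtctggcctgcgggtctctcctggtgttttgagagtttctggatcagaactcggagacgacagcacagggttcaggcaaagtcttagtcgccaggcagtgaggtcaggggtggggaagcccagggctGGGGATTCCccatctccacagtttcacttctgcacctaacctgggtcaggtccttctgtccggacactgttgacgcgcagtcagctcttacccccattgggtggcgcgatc
H2-D1: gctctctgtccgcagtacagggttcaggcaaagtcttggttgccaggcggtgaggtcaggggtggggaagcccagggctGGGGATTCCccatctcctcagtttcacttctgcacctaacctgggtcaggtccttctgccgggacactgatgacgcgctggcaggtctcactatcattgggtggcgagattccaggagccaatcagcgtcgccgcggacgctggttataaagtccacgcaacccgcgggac
B2m: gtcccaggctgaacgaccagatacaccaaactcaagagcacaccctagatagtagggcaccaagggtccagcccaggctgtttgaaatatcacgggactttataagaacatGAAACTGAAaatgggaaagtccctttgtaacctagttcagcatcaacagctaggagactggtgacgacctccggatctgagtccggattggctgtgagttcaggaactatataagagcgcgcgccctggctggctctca
Tapbp: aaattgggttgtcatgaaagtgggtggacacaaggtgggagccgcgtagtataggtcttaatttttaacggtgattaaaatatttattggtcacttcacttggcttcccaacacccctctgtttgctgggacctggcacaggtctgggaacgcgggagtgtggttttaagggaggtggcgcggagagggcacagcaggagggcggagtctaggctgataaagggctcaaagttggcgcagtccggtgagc

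The H2-K1 and H2-D1 windows share an identical run of 47 bases that holds the κB match, beginning 141 bases before the H2-K1 start and 201 before the H2-D1 start: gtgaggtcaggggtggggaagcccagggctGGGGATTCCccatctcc. Of the 7 windows, these were the 2 that held a match to the spelling GGGNNTTCC, against 4.98% of all 32851 RefSeq upstream windows. H2-T23 and Tap1, also higher in the DGKζ-/- library, held none. The interferon-response spelling GAAANNGAA was present in 3, those of B2m, H2-T23 and Erap1, against 7.13% of all windows. Tapbp and Tap1 held neither of these 2 spellings. The pentamer CCAAT, the core bound by NF-Y, was found in 6 of the 7 windows (all but Erap1) and in 33.8% of all windows. A match to TGACGNNA, a form of the cAMP-response element, occurred only in Tap1 among the 7, against 5.66% of all windows. TTCNNNGAA, a core of interferon γ-activated sequences, was found in 0 of the 7 windows, against 7.02% of all windows. These spellings can overlap one another and were counted separately, and a match describes letters, not a used site. A window without a match may still hold such an element, since other forms of each spelling were not searched.

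The DGKζ-/- library held 13464169 reads with 1 row per gene, against 37211969 in the wild-type library, so its values carry the larger counting error. Dgkz stood at 2591 normalized counts in the DGKζ-/- library and 6714 in the wild-type library. Xist, made from the inactive X chromosome of females, stood at 9206 and 14.0 normalized counts in the same order, so genotype, age and sex of the animals cannot be told apart. Normalized counts are the authors' read counts divided by 1 size factor per library. A difference is given as a fold of these values with its exact 95% counting interval, and as a log2 ratio, log2((DGKζ-/- + 10)/(wild type + 10)). Counting intervals do not cover variation between animals or cultures.

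None of the 10 genes was 2-fold or even 1.5-fold different between the libraries. Among the 10518 genes compared (mean of at least 50 normalized counts), 2.60% were at least 2-fold and 9.59% at least 1.5-fold higher or lower in the DGKζ-/- library. Low genes vary more by counting, and among the 2719 genes whose mean reached 2000 normalized counts, as it did for all 10, 1.03% reached 2-fold and 5.96% reached 1.5-fold. At such shares a count of 0 among 10 genes is near the background. The 10 log2 ratios ran from -0.38 to 0.44, with 6 above 0 and 4 below, and their median was 0.19. All genes compared had a median of 0.055 and 58.2% of them lay above 0, while the genes whose mean reached 2000 had a median of 0.11 with 69.0% above 0. Within this narrow span the heavy chains, the TAP subunits and Tapbpl were higher in the DGKζ-/- library, and Tapbp, Nlrc5 and B2m were lower.

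**Figure D1:**
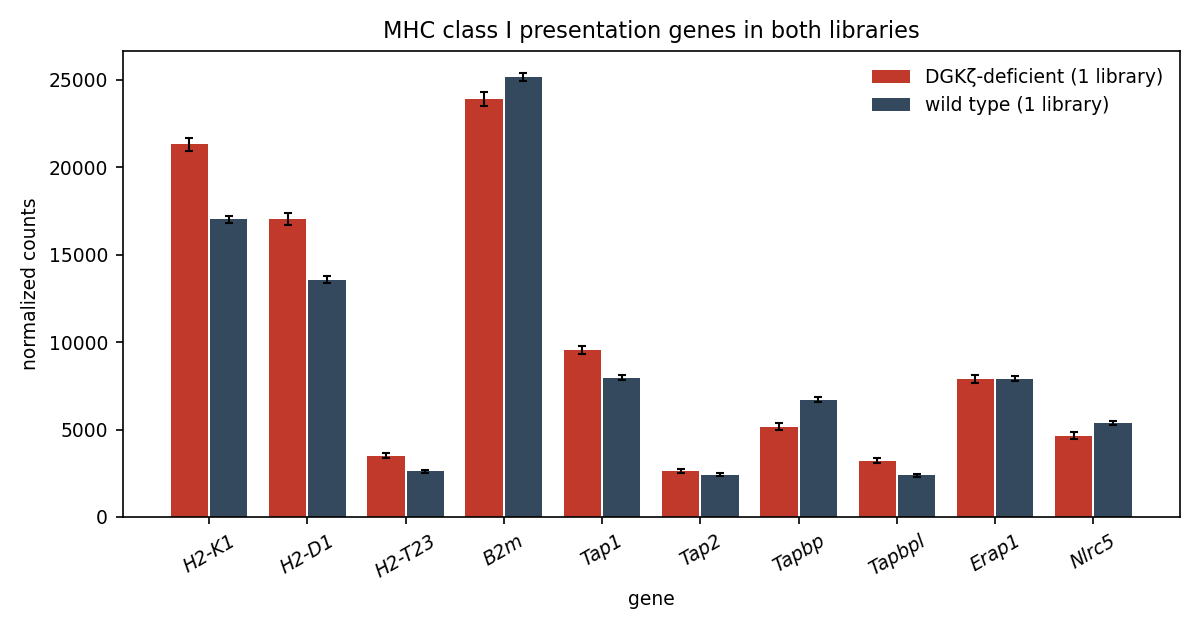
Normalized counts of the 10 genes in the DGKζ-/- library (red, left bar) and the wild-type library (blue, right bar), 1 library each, with exact 95% Poisson counting intervals as error bars. B2m, H2-K1 and H2-D1 carry the highest counts, and Tapbp and Nlrc5 are lower in the DGKζ-/- library where the heavy chains are higher.

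The classical heavy chain genes were both higher in the DGKζ-/- library and by the same factor. H2-K1, which encodes the classical molecule H-2K, was read at 21317 normalized counts in the DGKζ-/- library and 17011 in the wild-type library. This is 1.25-fold higher (counting interval 1.23 to 1.28; 12430 and 29173 reads). H2-D1, which encodes the other classical molecule of this strain, was read at 17040 in the DGKζ-/- and 13577 in the wild-type library, 1.26-fold higher (1.23 to 1.28). The ratio of H2-K1 to H2-D1 reads in the DGKζ-/- library was 0.999 times that in the wild-type library (logit interval 0.968 to 1.03). H2-T23 encodes Qa-1, a nonclassical molecule that presents leader peptides of other class I chains to CD94/NKG2 receptors. It was read at 3514 normalized counts in the DGKζ-/- and 2602 in the wild-type library, 1.35-fold higher (1.28 to 1.42). Of all genes compared, 26.2% had a larger absolute log2 ratio than H2-K1, 26.0% than H2-D1 and 16.7% than H2-T23. In bulk RNA, a change in the mixture of cells cannot be told apart from a change in the RNA per cell.

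Reads from one heavy chain can match another. Of the 50-base windows of the H2-K1 transcript, 8.79% occur in transcripts of other genes in GENCODE M21, against 14.3% for H2-D1 and 29.8% for H2-T23, and the sources used here state neither the read length nor how multiply mapped reads were handled. The longest run common to the coding sequences of H2-K1 and H2-D1, shown because reads inside it cannot be assigned to either gene, has 91 bases, at coding positions 738 to 828 of H2-K1 and 747 to 837 of H2-D1, counted from the start codon. H2-D1 and H2-T23 share an even longer one of 145 bases, at positions 663 to 807 of H2-D1.
H2-K1 and H2-D1: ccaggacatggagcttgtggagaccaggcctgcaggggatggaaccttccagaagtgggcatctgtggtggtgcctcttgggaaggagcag
H2-D1 and H2-T23: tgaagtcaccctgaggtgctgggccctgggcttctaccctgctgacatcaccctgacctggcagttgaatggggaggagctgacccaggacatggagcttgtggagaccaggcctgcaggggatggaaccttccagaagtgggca

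B2m, the light chain shared by all classical class I molecules, did not move with the heavy chains. It was read at 23909 normalized counts in the DGKζ-/- library and 25147 in the wild-type library, 1.05-fold lower (1.03 to 1.07), and 79.4% of all genes compared had a larger absolute log2 ratio. B2m shares no 50-base window with another gene. Relative to B2m reads, which cancels the scaling of the libraries, H2-K1 and H2-D1 reads were each 1.32 times as high in the DGKζ-/- library as in the wild-type library (logit interval 1.28 to 1.36 for both). H2-T23 reads relative to B2m were 1.42 times as high (lower limit 1.34). These ratios between genes were chosen after the values were seen.

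The subunits of the peptide transporter were both slightly higher. Tap1 was read at 9542 normalized counts in the DGKζ-/- library and 7973 in the wild-type library, 1.20-fold higher (1.16 to 1.23). Tap2, its partner in the transporter dimer, stood at 2634 in the DGKζ-/- and 2415 in the wild-type library, 1.09-fold higher (1.03 to 1.16), and 65.2% of all genes compared had a larger absolute log2 ratio. The Tap1 to Tap2 ratio was 1.10 times as high in the DGKζ-/- library (1.03 to 1.17). Tap1 has 2 transcript rows with the same log2 ratio of 0.26. Exons of Psmb9 on the opposite strand cover 7.18% of the Tap1 transcript in GENCODE, and those of Gm15821 cover 518 bases of Tap2. The library kit does not mark strand, so reads in those stretches cannot be assigned to one gene. Psmb9, an immunoproteasome subunit, had a log2 ratio of 0.15.

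The peptide editors differed in opposite directions, and they were the genes farthest apart in the set. Tapbp encodes tapasin, which bridges class I molecules to TAP and promotes the binding of stable peptides. It was read at 5172 normalized counts in the DGKζ-/- library and 6714 in the wild-type library, 1.30-fold lower (1.25 to 1.35). Tapbpl encodes the tapasin-related protein TAPBPR, which edits peptides outside the loading complex. It was read at 3228 normalized counts in the DGKζ-/- library and 2378 in the wild-type library, 1.36-fold higher (1.28 to 1.43). The ratio of Tapbpl to Tapbp reads was 1.76 times as high in the DGKζ-/- library (logit interval 1.65 to 1.88, counting error only), a value that does not depend on how the libraries were scaled. It joins the highest and the lowest of the 10 genes and was chosen after their values were seen, so it is a description of the span of the set. Of all genes compared, 89.3% had a log2 ratio above that of Tapbp and 7.70% above that of Tapbpl. Both transcript rows of Tapbp hold the same reads. In GENCODE, 23.5% of the Tapbp transcript is covered by exons of Gm19412 on the opposite strand, for which the table has no row under that symbol, so the part of such reads in the Tapbp value was not tested. Tapbpl has no overlapping exons of another gene.

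Erap1 was level between the libraries and Nlrc5 was lower. Erap1, the aminopeptidase that trims peptides to class I length, was read at 7877 normalized counts in the DGKζ-/- library and 7902 in the wild-type library (fold 0.997, interval 0.964 to 1.03), the single gene of the 10 whose counting interval includes 1 under the authors' size factors. With both libraries scaled to equal totals its log2 ratio was -0.094 and that of Tap2 was 0.035. Exons of Cast on the opposite strand cover 14.8% of its transcript, and Cast itself stood at 2197 and 2081 normalized counts in the DGKζ-/- and wild-type libraries. Nlrc5, the activator that binds class I promoters through the RFX and NF-Y complex, was read at 4653 normalized counts in the DGKζ-/- library and 5364 in the wild-type library, 1.15-fold lower (1.10 to 1.20). It shares no 50-base window with another gene. H2-K1 reads relative to Nlrc5 reads were 1.44 times as high in the DGKζ-/- library (1.38 to 1.52).

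**Figure D2:**
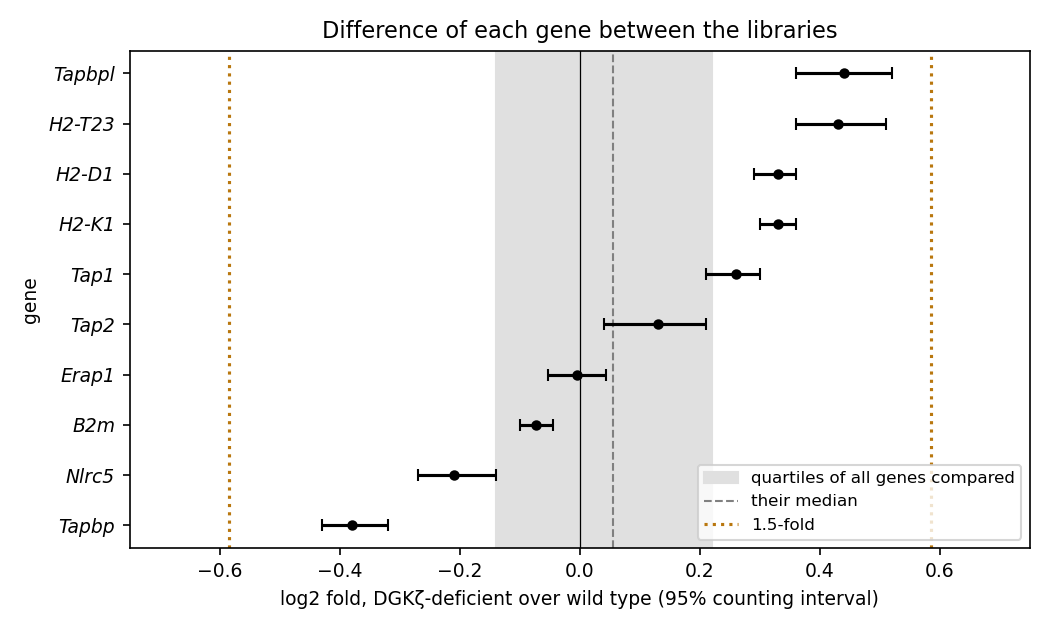
Log2 fold of normalized counts, DGKζ-/- over wild type, for each of the 10 genes with its exact 95% counting interval (horizontal bars). The grey band spans the lower to the upper quartile of all genes compared (-0.14 to 0.22), the dashed line their median, and the dotted lines 1.5-fold. Tapbp (-0.38) and Tapbpl (0.44) form the ends, and no interval reaches 1.5-fold.

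Levels between genes can be compared only per transcript length. Per kilobase of the matched GENCODE transcript, B2m led with 27801 normalized counts in the DGKζ-/- library and 29241 in the wild-type library. H2-K1 followed at 13167 in the DGKζ-/- and 10507 in the wild-type library, then H2-D1 at 8107 and 6459. The order went on with Tap1 (3231 and 2700), H2-T23 (2387 and 1768), Tapbp (1785 and 2317), Erap1 (1396 and 1400), Tapbpl (1372 and 1011), Tap2 (765 and 702) and Nlrc5 (670 and 772), each given as DGKζ-/- and then wild type. The order was not the same in both libraries: Tapbp stood above H2-T23 in the wild-type library and below it in the DGKζ-/- library, and Nlrc5 stood above Tap2 only in the wild-type library. Of the neighbours in this order, Erap1 and Tapbpl in the DGKζ-/- library had overlapping counting intervals, 1356 to 1437 and 1311 to 1436. Together the 10 genes took 0.428% of the reads in the DGKζ-/- library and 0.420% in the wild-type library.

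In the authors' deposited table, the log2 fold changes of the 10 genes have the same signs and are smaller, from -0.29 for Tapbp to 0.32 for Tapbpl and H2-T23. Their adjusted p in the authors' deposited table is 0.999 for each of the 10, and 0 of its 33018 rows lie below 0.05. That table gives Dgkz a log2 fold change of only -0.20, so its values are smaller than plain log2 ratios.

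The other heavy chain and class I-like genes that were measured were also read at higher values in the DGKζ-/- library, though not all beyond counting error. Of 27 further heavy chain and class I-like genes, 13 reached a mean of 50 normalized counts and 14 did not. All 13 had a log2 ratio above 0 (58.2% of all genes compared), and their median was 0.42, against 0.13 over all 27 without the minimum. The counting intervals of the fold include 1 for 4 of the 13: H2-K2 (0.927 to 1.94), H2-Q4 (0.981 to 1.18), H2-T10 (0.907 to 1.32) and Mr1 (0.893 to 1.69). At the 2-fold threshold 2 were higher in the DGKζ-/- library (1.30% of all genes compared) and 0 were lower, which leaves 11 uncalled. The called rows were H2-Q6 and H2-Q8, genes of the Qa region, each with 638 normalized counts in the DGKζ-/- and 311 in the wild-type library, 2.05-fold higher (1.79 to 2.34). The rows of H2-Q6 and H2-Q8 hold identical reads in both libraries, as do those of H2-Q7 and H2-Q9, which encode Qa-2, at 1818 and 1245 normalized counts (DGKζ-/- and wild type; 1.46-fold higher, 1.36 to 1.57). Counted once each, these left 11 rows, all above 0, with a median of 0.38. The 11 still include H2-L, and both H2-T9 and H2-T22, whose reads are nearly equal. H2-T9 had 1559 reads in the DGKζ-/- and 3422 in the wild-type library, against 1590 and 3473 for H2-T22. Whether these rows share reads was not tested, so the rows cannot be taken as separate genes. H2-L was read at 11694 normalized counts in the DGKζ-/- and 8713 in the wild-type library, although the H-2b haplotype of C57BL/6 is known to lack that gene, and the origin of these reads was not tested. Restricted to the 4 genes with less than 20% of their 50-base windows in other genes (H2-K2, H2-T24, H2-M3 and Mr1), the median was 0.36 and all 4 were above 0, those of H2-K2 and Mr1 within counting error. Among these, H2-M3, which presents formylated peptides, had 478 normalized counts in the DGKζ-/- and 367 in the wild-type library. Mr1, which presents microbial metabolites, had 99.5 in the DGKζ-/- and 80.5 in the wild-type library.

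**Figure D3:**
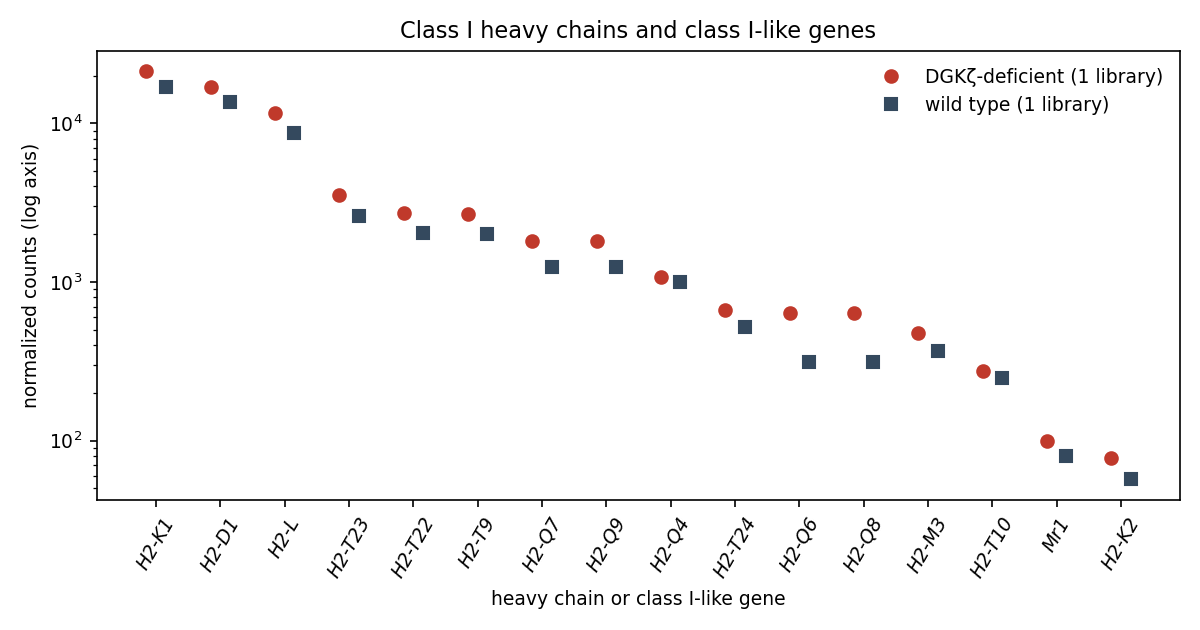
Normalized counts (log axis) of the 16 measured class I heavy chain and class I-like genes in the DGKζ-/- library (red circles) and the wild-type library (blue squares), ordered by the DGKζ-/- value. Each of the 16 rows is higher in the DGKζ-/- library, but the rows are not all separate genes. The H2-Q6 and H2-Q8 rows, as well as the H2-Q7 and H2-Q9 rows, hold identical reads, and this strain is known to lack H2-L.

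The machinery upstream and around the loading complex differed little. Of 16 measured genes for folding and quality control in the endoplasmic reticulum, 0 were at least 2-fold different (2.60% of all genes compared). In this list 13 lay above 0 and the median log2 ratio was 0.14. Of all genes compared, 58.2% lay above 0, and of those whose mean reached 2000 normalized counts, 69.0%. The loading complex chaperones Calr and Canx had log2 ratios of 0.15 and 0.18, and the oxidoreductase Pdia3 (ERp57) stood at 7903 normalized counts in the DGKζ-/- and 7948 in the wild-type library. The largest differences in this list were those of Syvn1, a ubiquitin ligase of ER-associated degradation (280 and 541, log2 ratio -0.93), Derl1 (0.45), Hspa5 (0.33) and Sel1l (0.21). Of 18 proteasome and cytosolic peptidase genes, 17 lay above 0 (58.2% of all genes compared, 69.0% of those whose mean reached 2000). In this list 0 were at least 2-fold different (2.60% of all genes compared). The median of the list was 0.18, and some genes lay close to 0, such as Psme3 (0.0020) and Tpp2 (0.022). The immunoproteasome subunits Psmb8, Psmb9 and Psmb10 had log2 ratios of 0.062, 0.15 and 0.0028. The largest values in that list were 0.46 for Psmb6, -0.46 for the aminopeptidase Npepps, 0.35 for the oligopeptidase Thop1 and 0.30 for Psmb7. Of 10 measured trafficking genes, 0 were at least 2-fold different (2.60% of all genes compared). In this list 6 lay above 0, near the share of all genes compared (58.2%), and the median was 0.11. The recycling factor Ehd1 had a log2 ratio of 0.80 (2780 normalized counts in the DGKζ-/- and 1598 in the wild-type library), against -0.48 for Sec24b and -0.30 for Sec24c, coat components of vesicles leaving the endoplasmic reticulum, and 0.21 for Surf4.

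Ifng differed far more than the class I genes that interferon γ induces. Ifng stood at 5356 normalized counts in the DGKζ-/- library and 1629 in the wild-type library, 3.29-fold higher (3.12 to 3.46). Of the 11 measured genes of interferon input, only Ifng was called higher at 2-fold (1.30% of all genes compared). None was called lower (1.29%), 9 lay above 0 and 2 below, and the median log2 ratio was 0.22. Ifngr2, the signalling chain of the interferon γ receptor, had 370 normalized counts in the DGKζ-/- and 204 in the wild-type library (log2 ratio 0.83). Jak2, its kinase, had 5831 and 3220 in the same order (0.85), and Socs3 had a log2 ratio of 0.28. The genes of the other receptor chain, Ifngr1, and of the kinase Jak1 were lower, with log2 ratios of -0.13 and -0.26. Of 23 measured interferon-induced genes outside class I, 4 were called higher at 2-fold (1.30% of all genes compared) and 0 lower. In this list 16 lay above 0 (58.2% of all genes compared) and the median was 0.25. The called genes were the ubiquitin-like modifier Isg15 (213 normalized counts in the DGKζ-/- and 60.6 in the wild-type library), its protease Usp18 (607 and 220), and the oligoadenylate synthetase family members Oas3 (684 and 305) and Oasl2 (75.5 and 29.7).

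Among 23 transcriptional regulators of class I genes, 0 were at least 2-fold higher, 1 was at least 2-fold lower (1.29% of all genes compared) and 22 were not called, with a median log2 ratio of 0.13. The lower one was Ciita, the class II relative of Nlrc5, with 39.4 normalized counts in the DGKζ-/- and 90.4 in the wild-type library (2.29-fold lower, 1.47 to 3.72, on 23 and 155 reads). Of the NF-κB genes, Nfkb2 had 6954 normalized counts in the DGKζ-/- and 4012 in the wild-type library (log2 ratio 0.79), and Relb had a log2 ratio of 0.49. Nfkb1 had one of 0.34, while Rela was lower, with 1794 normalized counts in the DGKζ-/- and 1983 in the wild-type library (-0.14). Ezh2, the methyltransferase of the Polycomb complex, had a log2 ratio of 0.41. The interferon factor Irf1 had a log2 ratio of 0.16, and Rfx5, a subunit of the complex that recruits Nlrc5, had one of 0.25.

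Most class II genes were lower in the DGKζ-/- library, unlike the class I heavy chains. Of 10 measured genes of class II presentation, 2 were at least 2-fold lower in the DGKζ-/- library (H2-Eb1 and Ciita; 1.29% of all genes compared), 0 higher and 8 not called, and 8 lay below 0. The median log2 ratio was -0.61, but -0.040 at a minimum mean of 200 normalized counts, where fewer genes are left. H2-Eb1 stood at 117 normalized counts in the DGKζ-/- and 269 in the wild-type library, H2-Aa at 238 and 432, and H2-Ab1 at 139 and 243. The invariant chain gene Cd74 was level at 1252 and 1287, while Ifi30, a thiol reductase, was higher at 1154 and 802 and the protease gene Ctss had a log2 ratio of 0.18. Markers of B cells were lower in the same library: all 6 measured markers of 8 were lower, the 8 summed to 640 normalized counts in the DGKζ-/- and 1043 in the wild-type library, and none was at 0. The summed CD8 T cell markers stood at 28719 and 37302 in the same order, with Cd8a at 8455 and 13090. Of the 6 measured, 5 were lower and 1, Thy1, was higher (6647 and 6041). The 3 CD4 T cell markers summed to 422 and 490, with Foxp3 at 321 and 262, Cd4 at 53.2 and 171 and Zbtb7b at 48.0 and 57.1. The 9 myeloid and dendritic markers found of 10 summed to 345 in the DGKζ-/- and 305 in the wild-type library, with Mpeg1 (185 and 127) and Xcr1 (66.9 and 19.2) higher. Cd68 stood at 70.3 and 93.9, the other 6 were each at or below 16.3 in both libraries, and Siglech was at 0 in the DGKζ-/- library. The 5 natural killer markers summed to 3627 and 3160, nearly all of it Eomes and Nkg7, which CD8 T cells also express, and the defining Ncr1 and Klrb1c were at 0 in the DGKζ-/- library and at 4.08 and 5.25 in the wild-type library. Erythroid and platelet markers summed to 6.86 and 54.2, and endothelial and stromal markers to 677 and 1039, nearly all of it Pecam1. Nucleated cells of all these types express class I genes, and the part of the cell mixture in the class I differences was not tested.

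Of 7 measured receptor and coreceptor genes for class I, 5 lay below 0 and 2 above (58.2% of all genes compared lay above 0). The 5 include both chains of CD8, Cd8a and Cd8b1. In this list 1 was at least 2-fold lower (1.29% of all genes compared), 0 higher and 6 not called. The median log2 ratio was -0.63, which is that of Cd8a, but -0.32 without the minimum mean. Klrd1, which encodes CD94, the partner of the NKG2 receptors for the H2-T23 product, stood at 134 normalized counts in the DGKζ-/- and 395 in the wild-type library, 2.95-fold lower (2.33 to 3.78). Its partner Klrc1 (NKG2A) stood at 51.4 and 91.0 in the same order, a log2 ratio of -0.72 on 30 and 156 reads. Cd160 had a log2 ratio of -0.77. Lilrb4, whose binding of class I was not examined here, had one of 0.91.

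**Figure D4:**
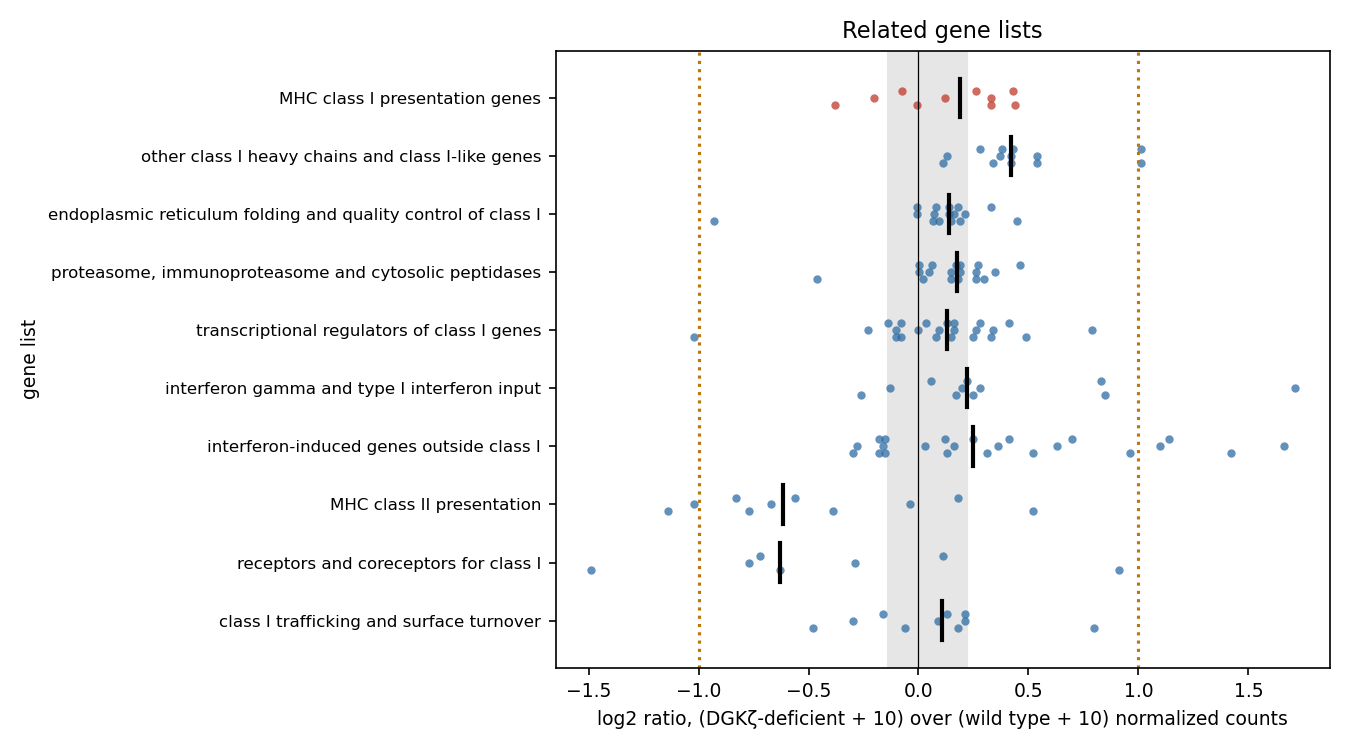
Log2 ratios, DGKζ-/- over wild type with 10 normalized counts added to each, of the measured genes of each list (points; red for the 10 class I presentation genes) with the list's median (black bar). The grey band spans the lower to the upper quartile of all genes compared and the dotted lines mark a log2 ratio of 1 and -1. The other heavy chains (median 0.42) lie wholly above 0, while class II presentation (-0.61) and the receptors for class I (-0.63) have medians below the band.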

How the data were processed

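RNA-seq was analysed from 2 libraries, 1 per genotype. The authors deposited normalized read counts per RefSeq transcript row, a signal formed by dividing the read count by 1 size factor per library. STAR version 2, DESeq and the build mm9 are named without roles, per the submitters' processing notes. The sources used here name neither the counting program nor the read length. All values (100%) were whole multiples of the value of 1 read (1.71 in the DGKζ-/- and 0.583 in the wild-type library; tolerance 0.0001), so reads were recovered. The log2 fold changes and p-values quoted as the authors' come from the authors' deposited table, whose score was not used.

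From these, the row with the highest mean stood for each gene, and log2 ratios (pseudocount 10, minimum mean 50) and exact Clopper-Pearson intervals (95%) on reads were computed with numpy 2.4.6, pandas 2.3.3 and scipy 1.17.1. Ratios between genes have logit intervals. edgeR's quasi-likelihood test has no residual degrees of freedom with 1 library per group, so it was not run. Of 33018 rows, 1 with a stray tab was left out, and 53 symbols turned into dates kept those names, so March1, March8 and March9 were not matched, nor were Hm13 and Lilrb3. The calculations were tested on simulated data. The members and the 9 related lists were chosen with earlier results of these data known. All 10 members are named, and of each list every gene at least 2-fold different and the 4 with the largest absolute log2 ratio. Other genes, such as Calr, Psmb8, Irf1 and H2-L, were named after their values were seen. Transcript lengths, exon overlaps and 50-base windows come from GENCODE M21 (GRCm38), whose build differs from mm9, so positions are given only for the RefSeq upstream windows. Some results are not reported here.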

Additional observations from a re-analysis of the deposited data

How the results depend on the processing

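With 1 library per genotype, no value could be checked by leaving a library out. No paired analysis was possible because each genotype has 1 library. The counts of genes at least 2-fold or 1.5-fold different were 0 of 10 each. These counts stayed at 0 under equal totals, recentring on the median of all genes, and pseudocounts of 1 and 50. They were also 0 with no minimum mean, a minimum of 200, summed transcript rows and the lowest transcript row. Those settings do not test the counts. All 10 genes have means above 200, so neither minimum setting changes which genes are counted. Only Tap1 and Tapbp have another transcript row, with the same or nearly the same reads. Each of the 10 genes kept its sign under its 5 or 7 alternatives. Of these, the pseudocounts cannot change a sign, and the row settings reuse nearly the same reads. The span was 0.24 to 0.33 for H2-K1 and H2-D1, 0.32 to 0.43 for H2-T23, -0.16 to -0.059 for B2m, 0.17 to 0.26 for Tap1, 0.035 to 0.13 for Tap2, -0.47 to -0.29 for Tapbp, 0.32 to 0.44 for Tapbpl, -0.094 to -0.0037 for Erap1 and -0.29 to -0.16 for Nlrc5. Equal totals move the median of all genes to -0.033 from 0.055, which shifts every value down. Under equal totals the median of the 10 genes was 0.10, of endoplasmic reticulum folding genes 0.051, of proteasome and peptidase genes 0.089 and of trafficking genes 0.017. Recentring gave 0.14 for the 10 genes. Without the heavy chains, an alternative chosen after seeing the data, the median of the remaining genes was -0.0046, the value of Erap1, as it is when any 3 of the 6 genes above 0 are left out. Without a minimum mean the median was 0.13 for the other heavy chains and -0.32 for the receptors. At a minimum of 200 the class II median was -0.040, as fewer genes were left.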
